A study of Mus musculus with 8 samples.

Results

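Mesothelial cells, the flat cells that cover the lung surface, were taken as all cells that the authors' deposited annotation names mesothelium. They numbered 1,132 of the 41,106 cells in the matrix, and 2.82% of the 40,074 cells that remained without multiplets and cycling cells. Single-cell RNA sequencing (scRNAseq) had been done on the right lungs of 8 C57BL/6 mice, 4 exposed to cigarette smoke (CS) and 4 to room air (RA). The strain serves to follow AT2 cells, on which the mouse work was centred, and CS and RA mice are compared here in the mesothelium. All 8 mice, RA mice included, carried Sftpc-CreERT2 and the mTmG reporter and received tamoxifen at 8 to 10 weeks of age. Exposure began 2 weeks later, lasted 10 months at 6 hours a day on 5 days a week, and ended 1 day before the lungs were taken. The Cre acts in cells that express Sftpc, a surfactant gene of alveolar type 2 (AT2) cells, so it was not aimed at the mesothelium. Lungs were digested with collagenase and elastase and remixed to 90% CD45- and 10% CD45+ cells, so cell counts reflect both what the digestion released and this mixing.

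The mesothelium is a single sheet of flat cells that lines the pleural cavity. It makes lubricating glycoproteins, retinoic acid, complement and matrix, and it keeps features of both epithelium and mesenchyme, with keratins next to vimentin. Like other secretory cells, it folds its products in the endoplasmic reticulum (ER), where chaperones such as BiP (encoded by Hspa5), foldases that form disulfide bonds and collagen-specific helpers work together. When folding demand rises, the sensors IRE1, ATF6 and PERK turn on these chaperones, in part through the ER stress element, a sequence in their promoters.

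CS mice gave 9 mesothelial cells in C2, 145 in C5, 132 in D2 and 141 in D5. RA mice gave 139 in F1, 91 in F3, 358 in M1 and 117 in M3. Mouse C2 stood far below the others and had under 20 cells, so comparisons of expression used 3 CS and 4 RA mice, and C2 is shown apart. The median depth was 15,021 UMIs (unique molecular identifiers, one for each captured transcript) per mesothelial cell, with a range from 1,026 to 100,114. Of 40,909 barcodes, 197 occurred in more than 1 library; 16 of them belonged to a mesothelial cell, and 0 to a mesothelial cell in both libraries. The CS libraries labelled male, C2 and C5, held Xist, the RNA of the inactive X chromosome, at 10.4 and 7.51 transcripts per 10,000 in mesothelial cells. In the CS libraries labelled female, D2 and D5, Xist was at 0 and the Y-linked Ddx3y at 0.442 and 0.693. C2 held Ddx3y at 0.220 as well, in 22.2% of its 9 cells, and C5 at 0.0158. By Xist, all 4 CS libraries thus went against their sex label and the 4 RA libraries matched it. Of the RA libraries, F1 and F3 are labelled female and M1 and M3 male. The exposure of each library was taken from its label, every CS minus RA value rests on it, and whether libraries as well as sex labels were exchanged was not tested. The labels do not state more on which animal each library came from, and p-values measure the spread between these libraries.

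The cells carried the markers of their label. A value here is the mean number of transcripts per 10,000 over the mesothelial cells of a mouse, and n counts mice. Msln, the surface glycoprotein mesothelin (chr17:25748613-25754378 of GRCm38, minus strand), stood at 23.7, 21.4 and 21.7 in CS mice C5, D2 and D5, and at 18.2, 20.4, 26.9 and 25.9 in RA mice F1, F3, M1 and M3. Wt1, a transcription factor of the mesothelium (chr2:105126529-105173616, plus strand), stood at 4.57, 3.82 and 3.62 in CS mice and at 3.18, 3.77, 3.77 and 3.72 in RA mice. Upk3b, a uroplakin of the apical membrane (chr5:136038496-136046487, plus strand), stood at 13.9, 17.7 and 16.2 in CS mice and at 21.6, 17.5, 19.8 and 20.5 in RA mice. The groups overlapped for all 3 genes. All 3 were found together in 1,031 cells (91.1%), 2 of them in 92 cells and 1 in 7 cells. Only 2 cells had 0 of the 3, a share of 0.177% (exact 95% interval 0.0214 to 0.637%, which covers counting error only).

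The other types held far less of these transcripts. Over all 7 mice the level was 22.6 ± 3.08 for Msln (SD, n = 7), against 1.47 in goblet cells, the next type, and 18.2 ± 2.69 for Upk3b against 0.0547 in lymphatic endothelium. Msln was found in 98.2% of mesothelial cells, Wt1 in 92.8% and Upk3b in 99.1%, at the median depth given above. In B cells, which do not make them, the shares were 0.943%, 0.0857% and 0.643% at a median of 4,055 UMIs. Of the further markers, Lrrn4 (5.50 ± 0.633), Gpm6a (23.8 ± 2.31), Muc16, which encodes the antigen CA125 (8.70 ± 0.969), Nkain4 (10.0 ± 1.19) and Upk1b (6.52 ± 0.392; SD, n = 7 for each) were all highest in the mesothelium. A pair of textbook markers did not single it out. Calb2, which encodes calretinin, was found in 0.0883% of the cells, and Krt19, a keratin, stood at 7.11 ± 1.91 in mesothelial and 9.32 ± 2.23 in alveolar type 1 (AT1) cells (SD, n = 7 and n = 8).

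**Figure D1:**
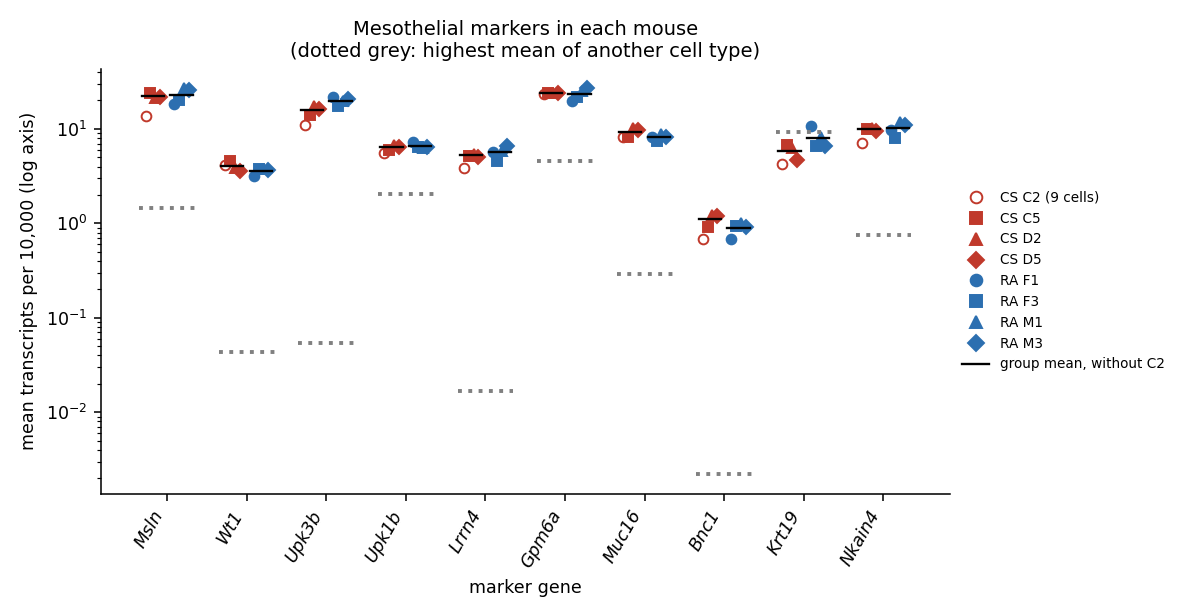
Mean transcripts per 10,000 (log axis) of the mesothelial markers in each mouse, as CS mice (red) and RA mice (blue), with black lines at the group means and a dotted grey line at the highest mean of another cell type. Msln lies between 18.2 and 26.9 in the 7 mice with 20 or more cells, above the 1.47 of goblet cells, and CS and RA mice overlap.

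Genes beyond the markers set the mesothelium apart as well; these are descriptions, since the cells had been named by clustering on the same genes. Among 1,861 genes at 1 or more per 10,000, 43 were over 5 times and 26 over 10 times higher than in any of the other types that had 20 or more cells in 6 or more mice. The 20 with the highest ratio were Upk3b, Lrrn4, Chst4, Lgals2, Nxph1, Wt1os, Wt1, Rgs4, Cldn15, Slurp1, Myl7, Fras1, Gm12381, Kcnd2, Pcnx2, Muc16, Sfrp2, Tmem151a, Prr15 and Msln. The ratio was 332 for Upk3b, 221 for Chst4, which adds sulfate to glycans, 161 for the secreted neurexophilin gene Nxph1 and 50.2 for Cldn15, which forms cation pores in tight junctions. Gm12381 ran from 0.227 to 3.66 between mice, and Nxph1 from 5.01 to 14.4. Wt1os runs antisense to Wt1, and reads of both cannot be told apart unless the counting used strand, which is not given in the sources used here.

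The reporters were low in the mesothelium. The eGFP transgene, switched on by Cre, stood at 0.724 ± 0.285 (SD, n = 7) in mesothelial cells, against 71.2 in AT2 cells, 5.73 in general capillary (gCap) cells and 0.447 in B cells. The tdTomato transgene of cells without recombination stood at 0.425 ± 0.145 (SD, n = 7), against 2.74 in gCap cells and 0.570 in B cells. Both levels were of the order of those in B cells. By share of cells, eGFP was found in 46.5% of mesothelial cells and 18.0% of B cells, at medians of 15,021 and 4,055 UMIs. For tdTomato, B cells are no floor, as the Cre was not aimed at them either. The mesothelial tdTomato level was above the 0.0574 of AT2 cells and near the 0.412 of adventitial fibroblasts. Mesothelial cells held it in 48.0% of cells and AT2 cells in 5.37%. CS and RA mice did not differ beyond their spread in eGFP (0.795 ± 0.0935 and 0.671 ± 0.384, SD, n = 3 and 4, exact two-sided permutation p = 0.629) or in tdTomato (0.435 ± 0.128 and 0.417 ± 0.176, exact permutation p = 0.914). The 5 single values compared between groups had adjusted p-values from 0.286 to 0.914.

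Markers of other cell types were mostly at low levels, apart from hemoglobin in RA mice. Of the 24 such genes, 8 were in enough cells to be tested, and 0 of these passed between groups, against 0.306% of all genes tested. At that share few calls are due among so few genes, so this does not show that the groups were alike in them. Summed levels in CS and RA mice were 0.0889 to 2.20 and 0.109 to 4.05 for 3 AT2 markers, 1.16 to 1.76 and 0.948 to 1.62 for 3 endothelial markers, and 0.534 to 0.869 and 0.954 to 1.92 for 4 fibroblast markers. The fibroblast sum did not overlap between the groups, through Col1a1 (0.465 to 0.740 in CS, 0.841 to 1.46 in RA, limma adjusted p = 0.175), while Inmt ran from 0.0129 to 0.0414 in CS and from 0.0157 to 0.353 in RA mice, Pdgfra stayed at or below 0.103 and Pi16 at or below 0.0212. For 2 hemoglobin genes, found in too few cells to be tested, the sums ran from 0.0446 to 2.52 in CS and from 0.235 to 13.96 in RA mice. They ran from 0.245 to 0.448 and from 0.235 to 0.475 for 3 AT1 markers, from 0.0356 to 0.0779 and from 0.055 to 0.188 for 3 genes of smooth muscle and pericytes, and from 0.094 to 1.17 and from 0.0769 to 0.911 for 4 immune genes, with the T cell gene Cd3e at 0 in mice of both groups. The AT1 gene Ager did not overlap between the groups either, at 0.0658 to 0.101 in CS and 0.0153 to 0.0614 in RA mice (limma adjusted p = 0.342). The AT2 gene Sftpc was found in 1.24% of the cells, and the club cell gene Scgb1a1, at most 3.24, was at 0 in mice of both groups. The part of this RNA in the results below was not tested.

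The share of mesothelial cells did not differ beyond the spread between mice. They made up 0.398, 3.70, 2.94 and 3.19% of the cells of 18 structural types in CS mice C2, C5, D2 and D5, and 2.50, 1.80, 9.86 and 7.34% in RA mice F1, F3, M1 and M3. The groups overlapped, with means of 2.56 ± 1.47 and 5.38 ± 3.87 (n = 4 and 4, SD; exact permutation test, two-sided, p = 0.286, and 0.476 after adjustment over 5 values). The smallest p that 4 against 4 mice allow is 0.0286. Among RA mice, those labelled male, M1 and M3, had the higher shares, and the part of sex was not tested. Per-mouse medians of UMIs per cell were 13,578 ± 1,697 in CS and 15,614 ± 2,199 in RA mice (mean ± SD, n = 3 and 4, exact permutation p = 0.286). The median mitochondrial share was 2.65 ± 0.231% in CS and 2.16 ± 0.155% in RA mice. These groups did not overlap (2.39 to 2.82 and 1.97 to 2.35%), with an exact permutation p of 0.0571, the smallest that 3 against 4 mice allow, and 0.286 after adjustment. This difference moves with the groups in every result below, and its part in them was not tested.

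In mesothelial cells of CS mice, transcripts of several ER chaperones, such as Hspa5 and Manf, were lower than in RA mice, and a few genes, among them the mineralocorticoid receptor gene Nr3c2, were higher. Of 11,115 genes tested with limma, 34 passed an adjusted p of 0.05 (0.306%), 26 lower (0.234%) and 8 higher (0.072%) in CS. An unadjusted p under 0.05 was reached by 736 genes that were lower and 800 that were higher. The log2 difference is that of the mean plus 1 and understates the change of low genes. The groups did not overlap for any of the 34 genes, against 13.9% of all genes tested (1,541). The test that picked the 34 favours genes without overlap, so this is no further support. The 9 cells of CS mouse C2, which were not in the test, had a value nearer the CS than the RA mean for 33 of the 34 genes, against 55.8% of all genes tested. The exception was Gm11342.

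The count rested on single mice. With CS mouse C5 left out 19 genes passed, with D2 8 and with D5 3, and with RA mouse M1 left out 4 passed and with M3 16. Manf, Selenos and Ssr2 passed with each of the 7 mice left out. As the groups did not overlap, no left-out mouse could turn a direction. Each sequencing lane held 1 CS and 1 RA mouse. With lane as a term, which leaves F1 without its partner C2, 7 of the 34 genes did not pass, Tubb2b, Tmed9, Stip1, Maml2, Hras, Lypd6b and Ormdl2 (limma adjusted p from 0.0523 to 0.0868). With the labelled sex as a term, which the CS libraries contradict and which therefore does not adjust for the sex that Xist shows, 6 did not pass, Lypd6b, Ormdl2, Hras, Chst4, Dnajc3 and Ptch1 (limma adjusted p from 0.0579 to 0.0704).

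**Figure D2:**
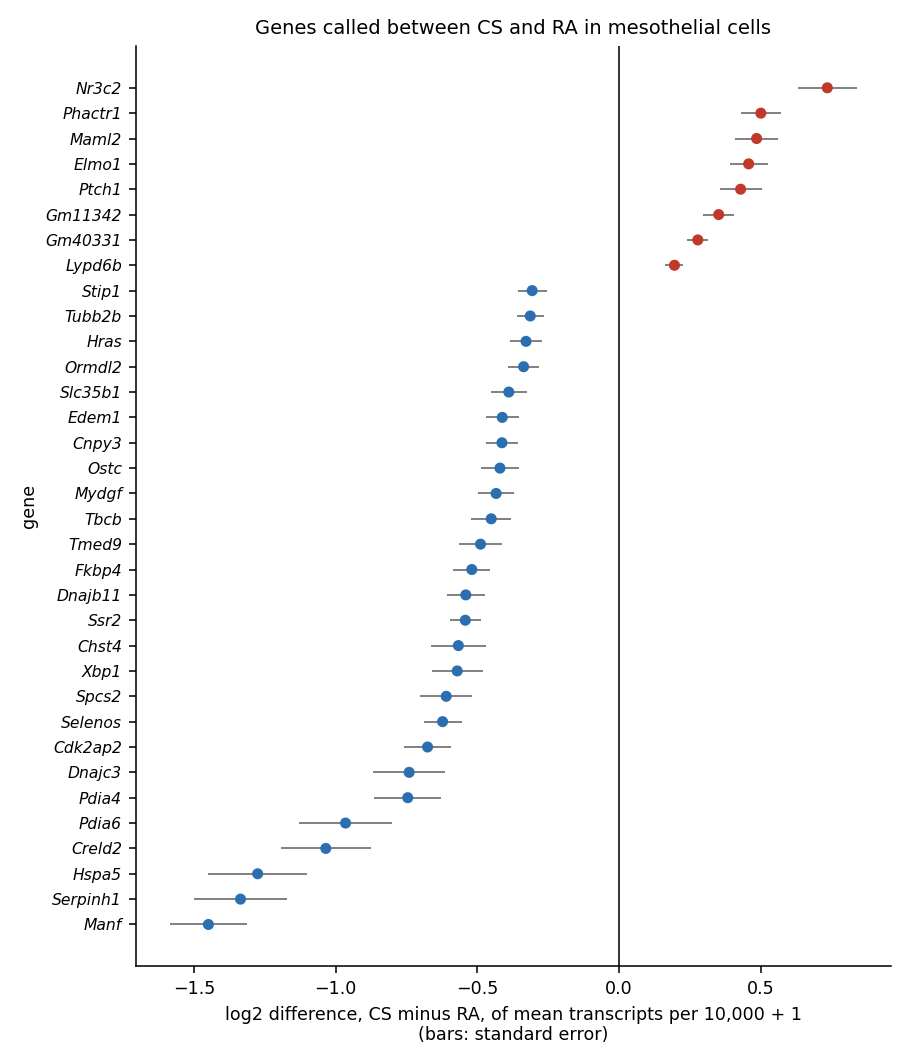
Log2 difference, CS minus RA, of mean transcripts per 10,000 plus 1 for the 34 genes that passed the limma test, with bars for the standard error. The 26 lower genes are led by Manf (-1.45), Serpinh1 (-1.34) and Hspa5 (-1.28), and the 8 higher genes by Nr3c2 (0.74).

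On the list of ER chaperones, which also holds stress factors such as Xbp1 and Ddit3, the genes that passed were all lower. Of the 17 genes on that list, all tested, 7 were lower in CS and 0 higher at the adjusted threshold, against 0.234% lower over all genes. With 1 mouse left out this count was 1 (Manf alone) without CS mouse D5 or RA mouse M1, 2 without D2, 3 without C5, and 6 to 9 without one of the other RA mice. All 17 had a lower estimate, 15 of them with an unadjusted p under 0.05 (736 of 11,115 over all genes), and 14 did not overlap between groups (13.9% over all genes). The median log2 difference was -0.57, against 0.00 over all genes tested. As the list was chosen with earlier results of these data known, these shares are a description and no independent support. Summed over the list, the level was 44.3 ± 3.55 in CS and 88.7 ± 19.5 transcripts per 10,000 in RA mice (mean ± SD, n = 3 and 4). C2 was nearer the CS mean for 17 of 17 genes.

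Hspa5 (chr2:34771970-34777547, plus strand), which encodes BiP, the main ER chaperone and a brake on the stress sensors, showed the pattern at a high level. It stood at 7.14, 6.69 and 5.45 in CS mice C5, D2 and D5, and at 14.8, 13.2, 19.1 and 21.8 in RA mice F1, F3, M1 and M3. Every CS mouse was below every RA mouse, and C2 had 5.79. The log2 difference was -1.28 (SE 0.174, limma adjusted p = 0.0203). Manf (chr9:106838312-106891979, minus strand) encodes a small ER factor that is induced by stress and partly secreted. Manf was at 1.87, 1.99 and 1.47 in CS mice and at 5.30, 5.86, 7.55 and 7.80 in RA mice, with 0.951 in C2. This was a 3.73-fold higher level in RA mice, and a log2 difference of -1.45 (SE 0.135, limma adjusted p = 0.00574).

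Creld2, an ER foldase and stress gene, was at 0.275, 0.336 and 0.193 in CS mice and at 1.12, 1.08, 2.01 and 2.43 in RA mice. It was found in 30.4% of the cells of a CS mouse and 83.1% of those of an RA mouse, averaged over mice. The log2 difference was -1.03 (SE 0.158, limma adjusted p = 0.0292), and the ratio of the means 0.162. The disulfide isomerases Pdia6 (2.21 ± 0.234 in CS and 5.39 ± 1.55 in RA, SD, n = 3 and 4, limma adjusted p = 0.0439) and Pdia4 (0.735 ± 0.0978 and 1.94 ± 0.516, adjusted p = 0.0302) were lower too. So was Dnajb11, a co-chaperone of BiP, at 0.447 ± 0.0613 and 1.11 ± 0.151 (limma adjusted p = 0.0133). Xbp1, the transcription factor that IRE1 activates by splicing, was at 1.64, 1.82 and 2.17 in CS and at 3.28, 2.98, 3.29 and 3.49 in RA mice (log2 difference -0.57, limma adjusted p = 0.0302). The counts do not separate spliced from unspliced Xbp1.

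The remaining 10 genes of the list did not pass. Calr, the calcium-binding lectin chaperone calreticulin, had 7.46 ± 1.08 in CS and 13.9 ± 3.67 in RA mice (limma adjusted p = 0.111), and Hsp90b1, the ER form of HSP90, 7.504 ± 0.207 and 13.5 ± 3.86 (limma adjusted p = 0.168). For Pdia3, a partner of calreticulin, the means were 5.61 ± 0.857 and 8.79 ± 1.82 (limma adjusted p = 0.178). Ddit3, the pro-apoptotic factor CHOP of the PERK branch, was nearest to 0, at 0.483 ± 0.103 in CS and 0.531 ± 0.127 in RA mice, with groups that overlapped and a log2 difference of -0.04.

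**Figure D3:**
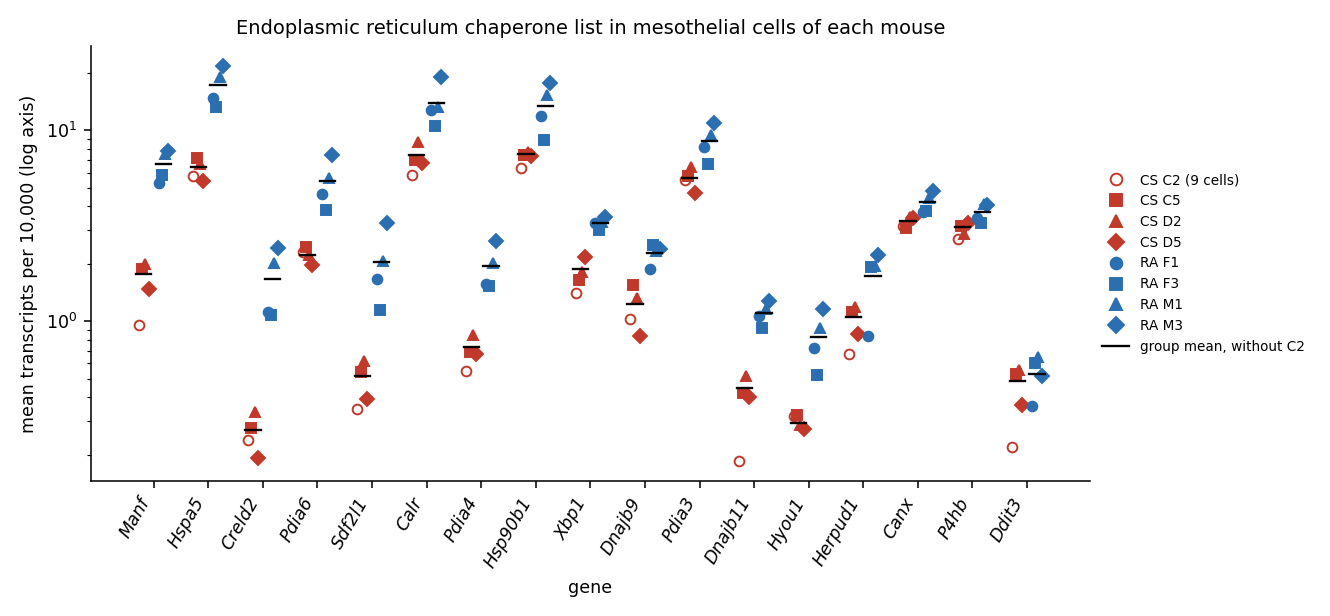
Mean transcripts per 10,000 (log axis) of the 17 genes on the ER chaperone list in mesothelial cells of each mouse. CS is in red and RA in blue, with open circles for CS mouse C2 (9 cells) and black lines for the group means without C2. For Hspa5 the CS mice lie between 5.45 and 7.14 and the RA mice between 13.2 and 21.8, while the groups overlap for Ddit3.

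The difference also showed in the median cell of each mouse, while single cells of CS and RA mice overlapped. The summed level of the 17 genes in single cells, a measure added after the values were known, had medians of 41.8, 48.1 and 39.3 in CS mice C5, D2 and D5 and of 39.7 in C2. In RA mice F1, F3, M1 and M3 the medians were 74.9, 64.8, 93.3 and 113. Between 98.5 and 100% of the cells of a CS mouse were below 90.8, the median over the pooled RA cells, as were 73.4% of those of F1, 82.4% of F3, 43.3% of M1 and 17.1% of M3, so the cut was set mostly by the many cells of M1. RA mice also differed among themselves, with the 10th percentile of M3 (81.1) above the median of F1. The RA mice labelled female, F1 and F3, had the lower medians and those labelled male, M1 and M3, the higher. Their values of Hspa5, Manf and Creld2 split the same way. No fit used the sex that Xist shows, and the part of sex was not tested. Between the groups, the 90th percentile of CS mouse D2 (65.4) was above the median of RA mouse F3.

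**Figure D4:**
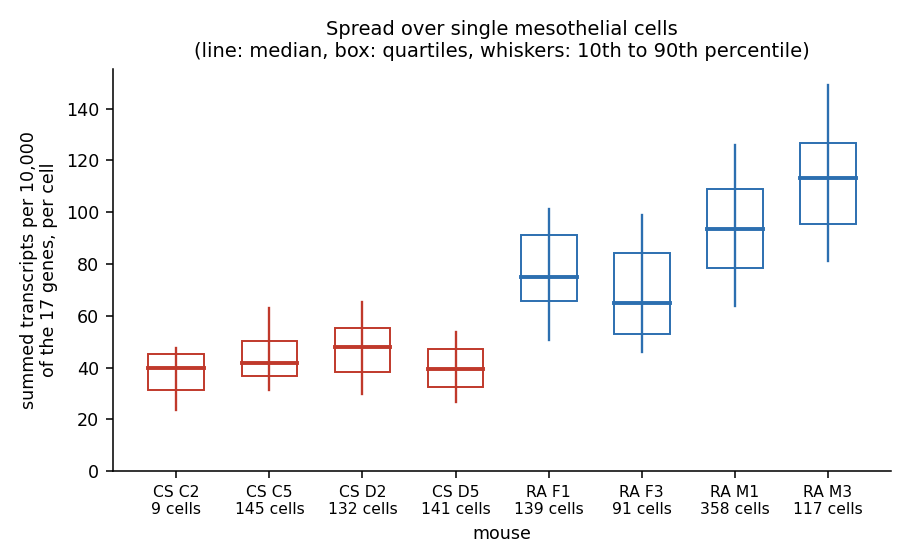
Summed transcripts per 10,000 of the 17 genes on the ER chaperone list in single mesothelial cells, by mouse. The median is a line, the quartiles are a box and the 10th to 90th percentiles are whiskers. CS medians lie between 39.3 and 48.1 and RA medians between 64.8 and 113.

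Promoters of these genes were read for the ER stress element, CCAAT and CCACG with any 9 bases between them, on either strand, a search chosen after the values were known. The sequences were those of RefSeq (GRCm38.p6), from 250 bases before to 50 after each start. The element was in 39 of 32,851 promoters (0.119%), and in 37 of 27,025 genes. It was in 4 of the 22 genes lower in CS that the promoter table holds (Hspa5, Creld2, Pdia6 and Dnajc3), in 0 of 7 higher genes and in 6 of 15 genes of the ER list (Hspa5, Hsp90b1, Calr, Canx, Pdia6 and Creld2). The element is known from such chaperones, so its share on the ER list is no independent support. Of 15 tested genes with the element, 12 had a lower estimate and only Hspa5, Creld2, Pdia6 and Dnajc3 passed. Adcy3, Pan2 and Spats2l had higher estimates (0.006, 0.045 and 0.069). The Creld2 element also lies in the promoter of Alg12, on the opposite strand, which was at -0.08 (limma adjusted p = 0.242). The 4 genes that passed with the element, and Hsp90b1, which did not pass but holds 2 copies, are shown; capitals mark the fixed bases at each end of the element, and each is written 5′ to 3′ along the strand of its gene. The first, in the Hspa5 promoter (chr2:34772020-34772048, plus strand), starts 65 bases before the RefSeq start, and only 29 bases are given since a GENCODE gene model begins further upstream.
Hspa5: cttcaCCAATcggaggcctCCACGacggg
In the next, longer windows, the element runs forward in Pdia6 (chr12:17266461-17266539, plus strand) and Dnajc3 (chr14:118937797-118937875, plus strand) and in reverse in Creld2 (chr15:88819490-88819568, plus strand).
Pdia6: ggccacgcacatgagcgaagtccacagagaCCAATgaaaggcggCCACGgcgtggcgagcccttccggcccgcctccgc
Dnajc3: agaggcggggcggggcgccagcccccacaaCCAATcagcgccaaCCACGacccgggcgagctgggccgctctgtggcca
Creld2: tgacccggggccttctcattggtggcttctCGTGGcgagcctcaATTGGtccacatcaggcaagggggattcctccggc
Hsp90b1 holds 2 copies on its minus strand, at chr10:86705633-86705661 and, in reverse, at chr10:86705528-86705556.
Hsp90b1, first copy: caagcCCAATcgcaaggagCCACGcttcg
Hsp90b1, second copy: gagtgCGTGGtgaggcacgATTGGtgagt
The E-box CACGTG, in 7.15% of promoters, was in 3 of the genes that were lower (Selenos, Mydgf and Cnpy3), and overlapped no ER stress element shown here. The heat shock element (0.603% of promoters) and the D-boxes TTATGTAA (0.938%) and TTACGTAA (0.119%) were in 0 of the lower genes and 0 of the higher ones. A match is a description of letters and not of binding.

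Lower genes outside this list are given by their known roles, sorted after the values were known and with no test of a shared role. Serpinh1 (chr7:99345376-99353239, minus strand), which encodes HSP47, the chaperone of procollagen, was at 4.08, 3.77 and 3.23 in CS mice and at 9.89, 8.10, 12.2 and 13.9 in RA mice, with 3.39 in C2. The groups did not overlap, and the log2 difference was -1.34 (SE 0.165, limma adjusted p = 0.0133). Dnajc3, a partner of BiP that holds back PERK, was at 3.34 ± 0.361 in CS and 6.29 ± 1.05 in RA mice (mean ± SD, n = 3 and 4, limma adjusted p = 0.0439).

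Among the other lower genes, Ssr2 and Selenos had a small spread within groups. Ssr2, a subunit of the translocon-associated complex, was at 0.693, 0.719 and 0.704 in CS and at 1.46, 1.47, 1.43 and 1.57 in RA mice, a tight separation (log2 difference -0.54, SE 0.0552, limma adjusted p = 0.00659). It passed in 17 of 17 alternative fits over mice. Selenos, a selenoprotein of the complex that draws misfolded proteins out of the ER, was at 0.870, 0.989 and 1.03 in CS and at 1.93, 1.91, 2.15 and 2.10 in RA mice (limma adjusted p = 0.00773). Each CS mouse was below each RA mouse for both genes. Spcs2 of the signal peptidase (ratio of CS to RA 0.547), Ostc of the oligosaccharyltransferase (0.560), Edem1, which marks misfolded glycoproteins for removal (0.427), and Tmed9, a cargo receptor (0.589), were lower as well. So were Cnpy3, a chaperone of Toll-like receptors (0.473), the secreted factor gene Mydgf (0.516), the transporter gene Slc35b1, which serves the ER with ATP (0.512), and Ormdl2, a regulator of sphingolipid synthesis (0.552).

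Outside the ER, Cdk2ap2 (ratio 0.484), the tubulin cofactor gene Tbcb (0.568), the tubulin gene Tubb2b (0.423) and Hras, a small GTPase gene (0.568), were lower in CS. Reads of Tubb2b may be shared with its near-identical family members, so its value is uncertain. Of 20 cytosolic chaperones tested, 17 had a lower estimate, with a median log2 difference of -0.15. Of these, 10 had an unadjusted p under 0.05 in limma (736 of 11,115 over all genes). On the list, 9 genes did not overlap between groups (13.9% over all genes). At the adjusted threshold, 2 were lower and 0 higher (0.234% and 0.072% over all genes). These were the HSP90 co-chaperone genes Fkbp4 (0.634 ± 0.0864 in CS and 1.34 ± 0.122 in RA, SD, n = 3 and 4, limma adjusted p = 0.0133) and Stip1 (0.383 ± 0.0685 and 0.7098 ± 0.0418, adjusted p = 0.0396). The constitutive chaperone gene Hspa8 was at 6.45, 6.63 and 5.01 in CS and at 7.44, 10.0, 10.4 and 11.2 in RA mice, without overlap, but did not pass (limma adjusted p = 0.137).

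One gene of mesothelial identity was among the lower ones. Chst4, the third gene by ratio to other types, was at 0.894, 0.770 and 1.12 in CS mice and at 1.86, 1.56, 2.30 and 1.72 in RA mice, with 0.8293 in C2 (ratio 0.499, limma adjusted p = 0.0439). The other 19 of the 20 genes of highest ratio did not pass. On the wider list of mesothelial identity, 19 genes were tested, and the median log2 difference was -0.04. Of these, 0 passed in either direction, against 0.306% over all genes. At that share few calls are due in lists this short, so the counts do not show that identity was kept. The smallest adjusted p among the markers was that of Upk3b, 0.338 (log2 difference -0.31, SE 0.131, limma).

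The 8 higher genes were of varied kinds. Nr3c2 (chr8:76899442-77245012, plus strand), which encodes the mineralocorticoid receptor, was at 2.28, 2.96 and 2.28 in CS mice and at 0.840, 1.04, 1.13 and 1.42 in RA mice, with 1.99 in C2. The 3 CS values lay above all 4 RA values, a ratio of 2.26 (log2 difference 0.74, SE 0.104, limma adjusted p = 0.0233). Phactr1, a regulator of actin and phosphatase 1, was at 1.47 ± 0.225 in CS and 0.742 ± 0.0541 in RA mice (mean ± SD, n = 3 and 4, limma adjusted p = 0.0233). Maml2, a coactivator of Notch, was at 3.39 ± 0.168 and 2.14 ± 0.0893 (limma adjusted p = 0.0302), and Elmo1, which acts with DOCK proteins on Rac, at 1.95 ± 0.202 and 1.15 ± 0.0207 (limma adjusted p = 0.0271). Ptch1, the Hedgehog receptor and itself a target of the pathway, was at 1.39, 1.22 and 1.28 in CS and at 0.916, 0.673, 0.707 and 0.551 in RA mice (limma adjusted p = 0.0445). Gli1, the other classical Hedgehog target, was at 0.382 ± 0.0617 and 0.251 ± 0.0731 and did not pass (limma adjusted p = 0.280). The other higher genes were the low Lypd6b, Gm11342 and Gm40331, with ratios of 2.58, 1.98 and 4.36.

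Direction moved with gene length, a look added after the values were known. The matrix sums spliced and unspliced transcripts, so long introns can add reads. The median length was 25.5 kb over all genes tested, 253 kb for the 8 higher genes, 10.2 kb for the 26 lower genes and 12.9 kb for the ER list. With the genes sorted by length into 4 classes of equal size, from the shortest to the longest, the median log2 difference was -0.03, -0.01, 0.01 and 0.04. At an unadjusted p under 0.05, 76 genes were higher and 330 lower in the shortest class, against 465 higher and 48 lower in the longest. Of the 26 lower genes, 13 were in the shortest class, 9 in the next, 4 in the third and 0 in the longest, and of the 8 higher genes 7 were in the longest. The part of length in the lower genes, the ER list and the higher genes was not tested.

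Other programs named for the mesothelium or for smoke gave few calls or none. Of 29 genes of matrix and basement membrane, 1 was lower (Serpinh1) and 0 higher, against 0.234% and 0.072% over all genes, with a median log2 difference of -0.04. Summed over that list, the level ran from 134.5 to 171.3 in CS and from 173.3 to 183.5 in RA mice, without overlap. This sum was not tested. The matrix Gla protein gene Mgp was at 58.6 ± 13.1 in CS and 60.2 ± 5.54 in RA mice, and the small proteoglycan gene Dcn at 32.8 and 41.0. Of 20 developmental signals, 1 was higher (Ptch1; 0.072% over all genes), and the median was 0.00. Igfbp5, which binds insulin-like growth factors, was at 69.8 ± 2.77 and 67.9 ± 22.2, and Rspo1, which amplifies Wnt signaling, at 6.17 ± 0.583 and 7.01 ± 0.608. On the list of 10 metallothionein and glucocorticoid genes, 1 was higher, the mineralocorticoid receptor gene Nr3c2 (0.072% over all genes). The median was -0.11, and 7 of the 10 had a lower estimate.

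In the remaining lists, 0 genes passed in either direction, against 0.306% over all genes, a share at which lists this short give few calls. In CS and RA mice, C3, the central complement protein, was at 88.7 ± 2.11 and 76.6 ± 9.53, and C4b at 36.9 ± 4.61 and 28.7 ± 3.71 (SD, n = 3 and 4, limma adjusted p of 0.480 and 0.307). The median over 9 complement genes was 0.15. Summed over the complement list, the level ran from 184.0 to 201.5 in CS and from 153.6 to 183.7 in RA mice, without overlap. This sum was not tested. For 7 retinoid genes it was -0.07, with Aldh1a2, which makes retinoic acid, at 7.24 ± 1.09 in CS and 7.63 ± 0.780 in RA mice. For 11 genes of the mesothelial to mesenchymal transition it was 0.01. There, Tgfb2 was at 3.59, 3.32 and 3.82 in CS and at 2.45, 2.18, 2.56 and 1.90 in RA mice, without overlap (log2 difference 0.49, limma adjusted p = 0.0763), and vimentin (Vim) at 14.5 ± 2.17 and 20.4 ± 3.11 (limma adjusted p = 0.242).

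The smoke-response lists were without calls as well. The median log2 difference was 0.02 over 4 aryl hydrocarbon receptor targets, -0.06 over 25 genes of NRF2 and antioxidant defence, and -0.07 over 9 genes of p53 and senescence. Of the latter, Nupr1, a stress-induced chromatin factor, was at 1.92 ± 0.385 in CS and 3.30 ± 0.764 in RA mice (mean ± SD, n = 3 and 4, limma adjusted p = 0.173). AP-1 and immediate-early genes, which tissue digestion can induce, had a median of -0.21 over 20 genes, with Fos at 13.0 ± 2.99 and 16.8 ± 1.84. Of these 20, 6 had an unadjusted p under 0.05 in limma, all lower (736 of 11,115 lower over all genes). Clock output genes had a median of 0.13 over 13, and Dbp stood at 2.60, 2.68 and 2.36 in CS and at 0.329, 1.37, 1.49 and 2.44 in RA mice, with RA mouse F1 far below the others. Of the 13 clock output genes, 4 had an unadjusted p under 0.05 in limma, all higher (800 of 11,115 higher over all genes). Medians were also between -0.12 and 0.12 for 7 hyaluronan and lubrication genes, 11 of fibrinolysis, 12 chemokines and cytokines, 18 of interferon and MHC class I, 6 of the opposite clock phase, 13 of water, ion and junction proteins and 17 of oxidative phosphorylation. Of 10 proliferation genes, 1 was found in enough cells to be tested.

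Whether the CS difference was particular to the mesothelium was tested against 3 other types of the same 7 mice, adventitial fibroblasts (1,403 cells over all mice), alveolar fibroblasts (2,014) and AT1 cells (975). The test took, for each mouse, the log2 level in mesothelial cells minus that in the other type, and compared this difference between CS and RA. Against adventitial fibroblasts 1 of 8,759 genes differed (0.0114%), Eml1, a microtubule-binding protein gene whose CS difference was -0.08 in the mesothelium and 0.50 in those fibroblasts (difference -0.58, limma adjusted p = 0.0469). With a pseudocount of 0.1 it was 0 genes, as it was with any mouse but RA mouse F3 left out. At an unadjusted p under 0.05 there were 667. Against alveolar fibroblasts 0 of 7,919 genes differed (0%), with 779 at an unadjusted p under 0.05; 1 passed with a pseudocount of 0.1. Against AT1 cells, the flat cells of the alveolar wall, 41 of 8,403 genes differed (0.488%), 14 with a higher and 27 with a lower CS difference in the mesothelium (0.321% lower). Without CS mouse D2 this count was 5, without D5 6, without C5 23 and without RA mouse M1 24.

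Of the genes lower in the mesothelium, Manf, Serpinh1 and Hspa5 differed most from AT1 cells. For Manf, the CS difference was -1.45 in mesothelial and -0.17 in AT1 cells (difference -1.28, SE 0.122, limma adjusted p = 0.00252). For Serpinh1 it was -1.34 and -0.12 (difference -1.22, SE 0.113, limma adjusted p = 0.00252), and for Hspa5 -1.28 and -0.28 (difference -0.996, SE 0.129, limma adjusted p = 0.0162). Of the ER list, 4 genes passed this test (Manf, Hspa5, Pdia4 and Canx), 16 of 17 had a lower estimate, and the median of the differences was -0.51. Of the 34 genes, 28 could be tested against AT1 cells and 8 differed, the others being Pdia4 (-0.79), Edem1 (-0.48), Cdk2ap2 (-0.47), Tbcb (-0.42) and Ostc (-0.38). The 34 had been picked by their mesothelial values, which also enter this test, so the 8 are no independent support.

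Estimates in both fibroblast types lay nearer those of the mesothelium. Manf had a CS difference of -1.18 in adventitial and -0.81 in alveolar fibroblasts, and Hspa5 -1.11 and -0.87. Of the 34 genes, 30 could be tested against adventitial fibroblasts and 0 differed, and 29 against alveolar fibroblasts, where 0 differed. Of the ER list, 8 of 17 genes passed as lower in adventitial fibroblasts (0.313% of all genes there), 8 in alveolar fibroblasts (0.325%) and 0 in AT1 cells (0.453%), with medians of -0.57, -0.44 and -0.11. These types come from the same mice, so their values are not independent of those of the mesothelium. The median of the differences over the list was -0.13 against adventitial and -0.22 against alveolar fibroblasts, 13 of 17 genes being lower in each case and 0 past the threshold. That a gene did not pass does not show that the types were alike. Edem1 was at -0.41 in the mesothelium and at 0.05 and -0.04 in the fibroblasts, a difference that did not pass in either (limma adjusted p = 0.123 and 0.164).

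**Figure D5:**
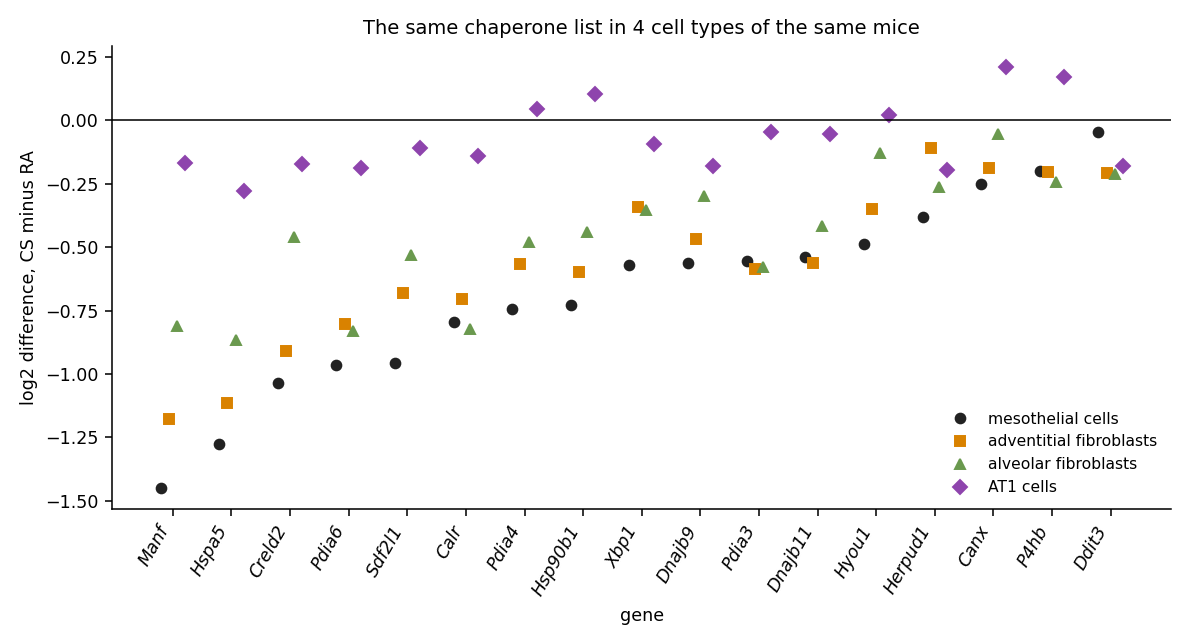
Log2 difference, CS minus RA, of the 17 genes on the ER chaperone list in mesothelial cells and other types of the same mice. Mesothelial cells are black circles, adventitial fibroblasts orange squares, alveolar fibroblasts green triangles and AT1 cells purple diamonds. The medians are -0.57, -0.57, -0.44 and -0.11.

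For other genes the AT1 cells carried part or most of the difference. Canx, the membrane-bound lectin chaperone calnexin, had a CS difference of -0.25 in the mesothelium and 0.21 in AT1 cells, neither of which passed on its own. Mt1, a metallothionein gene, had a CS difference of -0.07 in the mesothelium, where it was at 2.36 ± 0.614 in CS and 2.58 ± 0.997 in RA mice (mean ± SD, n = 3 and 4), and of 1.85 in AT1 cells (difference -1.92, limma adjusted p = 0.00245). Tsc22d3, a glucocorticoid target, was at 2.58 ± 0.516 and 4.02 ± 1.94 in the mesothelium, with a CS difference of -0.43 there and -1.21 in AT1 cells (difference 0.78, limma adjusted p = 0.00386). Rora, a nuclear receptor of the clock, had 0.67 in the mesothelium and -0.12 in AT1 cells (difference 0.79, limma adjusted p = 0.0162).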

How the data were processed

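The authors aligned reads with STAR 2.7.3a (STARsolo) to GRCm38.p6 with GENCODE M22 and the transgenes, summed spliced and unspliced UMIs, removed free RNA with SoupX, filtered cells and named clusters. The deposited matrix, called normalized, holds estimated counts that were not scaled: 1.28% of its values are whole within 1e-06. The deposited mitochondrial percent was used as given; 80 mesothelial cells exceed 5%. The 1,025 cells the authors named multiplets and 7 named cell cycle were dropped, and doublets were not called anew. Total UMIs per mouse were 31,882,952 to 55,485,617.

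Each cell was scaled to 10,000 transcripts and averaged per mouse, for mice with at least 20 mesothelial cells. Genes in at least 10% of cells of either group were tested with limma 3.58.1 (R 4.3.3, trend) on log2(mean + 1), with Benjamini-Hochberg adjustment over all genes and a threshold of 0.05; no count model was used, as the values are corrected. Differences between types used the same test. Single values used exact two-sided permutation over mice (35 assignments for 3 against 4, 70 for 4 against 4). The limma step was tested on simulated data. Lanes hold 1 CS and 1 RA mouse each. Alternatives were lane, labelled sex, filters, pseudocount, normalization, left-out mice and a Wilcoxon test over cells, the last with Bonferroni correction over all 33,027 genes of the matrix.

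The mesothelial cells and the gene lists were chosen with earlier results of these data known. Genes were named as markers, as the 4 of highest mean and every gene that passed in a list, as up to 15 higher and 15 lower genes by size of difference, and as the 20 of highest ratio to other types; other genes named were chosen after their values were seen. Gene positions and lengths are from GENCODE M21.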

Additional observations from a re-analysis of the deposited data

Results flagged for a closer look

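Mouse C2 had 9 mesothelial cells, against 132 to 145 in the other CS mice, a gap wide enough to stand apart among 4 samples. Wt1 was lowest in RA mouse F1, at 3.18, against 3.72 to 3.77 in the other RA mice. Of 62 groups of values looked at, these 2 stood apart, and chance gives about 1 in 20, or 3.1.

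Of the 34 genes, 28 could be tested against AT1 cells. The CS difference of 8 of them was larger in mesothelial than in AT1 cells by the test of the difference itself (limma, adjusted p under the threshold for each). The 34 had been picked by their mesothelial values, which also enter this test, so the 8 are no independent support. The log2 difference between the types was -1.28 for Manf, -1.22 for Serpinh1, -0.996 for Hspa5, -0.79 for Pdia4, -0.48 for Edem1, -0.47 for Cdk2ap2, -0.42 for Tbcb and -0.38 for Ostc. Of the 34 genes, 0 of the 30 that could be tested differed from adventitial and 0 of 29 from alveolar fibroblasts. Against adventitial fibroblasts it was -0.58 for Eml1, which did not pass between CS and RA mice in the mesothelium.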

How the results depend on the processing

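The number of genes that passed between CS and RA mice was 34. It was 1 with no filter on genes, 62 for genes in at least 25% of cells, and between 3 and 33 with 1 mouse left out. A Wilcoxon test that treats cells as independent gave 607 (169 higher and 438 lower, with 33 of the 34). That test used a Bonferroni correction over all 33,027 genes of the matrix, so its threshold was not that of the other counts. The other 8 alternatives over mice gave 24 to 48; lane as a term gave 48 (14 higher, 34 lower) and shared 27 of the 34. All 34 genes kept their direction in every fit over mice that tested them, which the lack of overlap between groups fixes for the fits with a mouse left out. Against adventitial fibroblasts 0 genes differed with a pseudocount of 0.1 and 0 to 1 with 1 mouse left out, against alveolar fibroblasts 1 and 0 to 2, and against AT1 cells 5 to 58 with 1 mouse left out, in place of 41. Leaving out mice in the tests between types was added after the data were seen. The tdTomato difference of 0.0181 ran from -0.0623 to 0.0800 and the eGFP difference of 0.124 from -0.0352 to 0.278 with 1 mouse left out. In the same way, the CS minus RA difference of -2.82 in the percentage of structural cells ran from -4.01 to -1.33. That of -2,036 in median UMIs ran from -2,962 to -1,169. Replicate numbers only follow the order of deposit and pair no mice; the one pairing in the labels is that of the lanes, given above as a term. A mesothelial cell held 15,021 UMIs in the median, so a transcript at 0.1 per 10,000 gives under 1 UMI per cell; how far depth limited the calls was not tested.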

Other observations

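MHC class I transcripts were high in the mesothelium of a single mouse, which was looked at after the values were seen. In CS mouse D2, B2m, the light chain, was at 35.1 transcripts per 10,000, H2-K1 at 48.7 and H2-D1, both heavy chains, at 37.4. The other 6 mice with enough cells had 12.2 to 14.4, 12.5 to 17.05 and 10.2 to 16.1. Over single cells, the sum of the 3 genes had a median of 113 in D2 and of 19.7 to 41.4 in the other 7 mice, and the 10th percentile of D2 was 58.7. Adventitial fibroblasts of D2 were high as well, at 29.6, 27.5 and 27.3, against at most 12.2, 7.21 and 7.74 in the others. In alveolar fibroblasts and AT1 cells, D2 was also the highest mouse for each gene, by less: for H2-K1 it had 5.37 and 10.4, against at most 4.42 and 7.44. As 1 mouse carried it, no difference between CS and RA mice was drawn from it, and its cause was not tested.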
